A study of Mus musculus with 4 samples.

Results

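Among nuclei of the adult mouse hippocampus sorted for recent DNA synthesis, 109 of 728 wells were selected on their measured reads of 4 genes, Gpr17, Bmp4, Neu4 and Enpp6, of which at least 2 had to be on. The whole series has 1430 wells that held enough reads. A well was kept with at least 300 genes read and at least 20000 reads, and a gene was called on in a well at 10 or more reads and 100 or more reads per 1000000 reads of that well (CPM). Wells that meet this rule are called member wells here. The 4 genes are markers of committed oligodendrocyte precursors, but for most member wells the data went against that name: 102 of the 109 had exactly 2 of the 4 genes on, nearly always Gpr17 with Neu4, and 93 of those 102 still had the precursor receptor gene Pdgfra on. Only 7 wells had 3 or 4 of the genes on, and none of those 7 had Pdgfra on.

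The animals were 8.5-month-old mice, wild type (WT) or carrying the Fasn-R1812W change in fatty acid synthase, the enzyme that makes long-chain saturated fatty acids. Both groups had received the thymidine analogue EdU by intraperitoneal injection at 100 mg/kg, 2 times a day for 3 days, and hippocampal nuclei were isolated on day 4, stained for EdU and sorted singly into wells. A further pair of libraries, from WT and Fasn-R1812W hippocampi of the same age with no EdU in their labels, held nuclei sorted for the neuronal protein NeuN and served as the background of the rule. The labels give neither zygosity, sex nor the number of animals behind a library, and there was 1 library per group, so no difference between genotypes could be tested against a spread between animals; wells of a library share their source and are not replicates.

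Oligodendrocyte precursors are the main dividing cells of the adult brain outside the neurogenic niches. They carry the receptor PDGFRα and the proteoglycan NG2, encoded by Pdgfra and Cspg4, and on differentiation they pass through a short premyelinating stage, lose both and then switch on myelin genes. That stage is known for GPR17, an orphan G protein-coupled receptor that holds back maturation, the secreted factor BMP4, the sialidase NEU4 and the choline phosphodiesterase ENPP6. Bcas1 and Tcf7l2, the latter a transcription factor of the Wnt pathway, are further markers of it.

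The files hold read counts per gene from full-length Smart-seq2 libraries of single nuclei, a method without molecular identifiers, so PCR copies count as reads and every interval below covers counting error only. The Fasn-R1812W library was deeper: member wells had a median of 77588 reads and 1259 genes in the WT library against 183451 reads and 3055 genes in the Fasn-R1812W library. The gap in genes came with very low counts, since values of 1 or 2 reads made up 12.99% of the nonzero values of member wells in the WT library and 49.6% in the Fasn-R1812W library, and with 10 or more reads required the medians were 881 and 1169 genes. The mitochondrial share of reads was 0.26% in member wells of both libraries. All 4 libraries use the same 384 well names, and 0 wells had identical counts in a pair of libraries.

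Member wells made up 58 of 352 kept wells in the WT library, 16.5% (exact Clopper-Pearson 95% interval 12.8% to 20.8%), and 51 of 376 in the Fasn-R1812W library, 13.6% (10.3% to 17.45%). The difference, Fasn-R1812W minus WT, was −2.91 percentage points, and its interval of −8.16 to 2.28 points covers 0. In the NeuN+ libraries, 0 of 350 WT wells met the rule, where a count of 3 wells would be 0.857% and the exact upper limit is 1.05%, and 1 of 352 Fasn-R1812W wells did, 0.284%. That well also had neuronal genes on. A further set held EdU+ wells with microglial genes on, leaving out member wells and wells with at least 2 precursor genes on. That left out 3 Fasn-R1812W wells with precursor genes on, and no well of the set could meet the rule. Gpr17 and Neu4 were on in 0 of 28 of these wells in the WT library and 0 of 40 in the Fasn-R1812W library. Their median depths were 113213 and 227112 reads, and Enpp6 was on in 1 of the 40. The member shares were above the levels in the NeuN+ libraries. The microglial wells were chosen without members, so they give no such background for the share.

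The share changed with a stricter filter on wells. Among wells with at least 1000 genes and 50000 reads, 42 of 167 in the WT library were members, 25.15%, and 47 of 348 in the Fasn-R1812W library, and the difference, Fasn-R1812W minus WT, was −11.64 percentage points (−19.42 to −4.461). With every well thinned to 20000 reads and a gene on at 2 reads, 60 of 352 and 60 of 376 wells were members, a difference of −1.088 points (−6.525 to 4.304). Near the rule's edge, the weaker of the deciding genes stood at 115, 116 and 129 CPM in the 3 WT wells just inside. In the Fasn-R1812W library it stood at 115, 117.9 and 118.3 just inside and at 95.3, 92.1 and 85.7 just outside. For these values a gene with too few reads to be on counted as 0, and the nearest WT wells outside had 0. That 0 marks no gap, since WT members rose from 58 to 65 with on at 5 reads and 50 CPM.

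The combinations of the 4 genes were much alike in both libraries. In the WT library, 51 wells had Gpr17 and Neu4, 3 had Bmp4 and Neu4, 1 had Gpr17, Bmp4 and Neu4, and 3 had all 4 genes on. In the Fasn-R1812W library, 48 wells had Gpr17 and Neu4, 1 had Gpr17, Bmp4 and Enpp6, 1 had Gpr17, Bmp4 and Neu4, and 1 had all 4. Gpr17 and Neu4 were also common singly: Gpr17 alone was on in 64 EdU+ wells of each library, and Neu4 alone in 41 WT and 80 Fasn-R1812W wells. Bmp4 and Enpp6 were rare, Bmp4 on in 9 and 7 and Enpp6 in 5 and 3 EdU+ wells of the WT and Fasn-R1812W libraries. Bmp4 was on in 3 of the 5 WT wells and 2 of the 3 Fasn-R1812W wells with Enpp6, against 1.73% and 1.34% of the wells without it. Most wells with Bmp4 on lacked Enpp6, and Neu4 was on in 7 of the 9 WT and 2 of the 7 Fasn-R1812W wells with Bmp4.

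**Figure D1:**
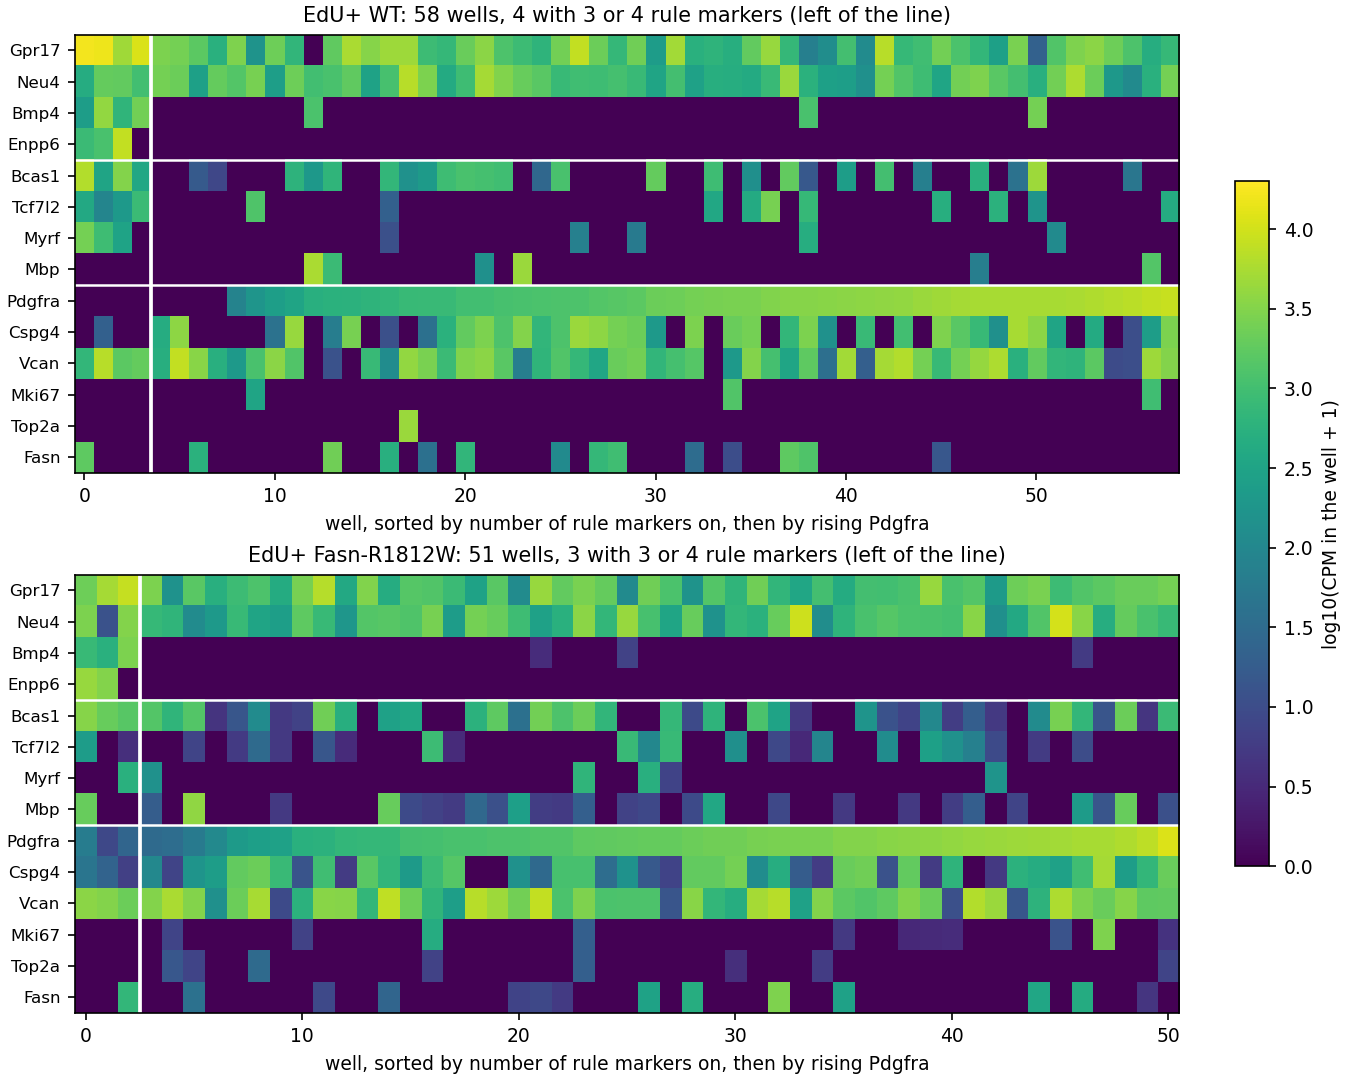
Each column is a member well, 58 from the WT library (top) and 51 from the Fasn-R1812W library (bottom), and each row a gene; colour gives log10 of CPM in the well plus 1, and wells are sorted by the number of rule genes on and then by rising Pdgfra. The 7 wells left of the white lines carry Bmp4 and mostly Enpp6 with Bcas1 and little or no Pdgfra, while the other 102 mostly carry Gpr17, Neu4 and Pdgfra together.

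Gpr17 (chr18:31942997-31949636, minus strand, GRCm38) ranged over member wells from 0 to 16841 CPM with a median of 1505 in the WT library and from 116 to 8384 with a median of 1363 in the Fasn-R1812W library. Over the summed reads of all member wells it stood at 2647 CPM in WT and 1930 in Fasn-R1812W, and the per-well ranges overlapped almost wholly. Gpr17 lies inside Lims2 (chr18:31922290-31958619, plus strand), and because no source used here says whether strand entered the counting, their reads cannot be told apart; Lims2 itself was on in 6 of 58 and 14 of 51 member wells. Neu4 (chr1:94020451-94028334, plus strand) had summed levels of 1552 and 1476 CPM, with medians of 1031 and 1095 over wells.

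Bmp4 (chr14:46383520-46390669, minus strand) had summed levels of 234 CPM in WT and 114 in Fasn-R1812W, carried by 7 and 3 wells. Enpp6 (chr8:46986887-47096762, plus strand) had 302 and 119, carried by 3 and 2 wells, and a single well held 88.6% of its WT reads and 64.8% of its Fasn-R1812W reads. These genotype differences rest on few wells. All member wells with Enpp6 on, and all Fasn-R1812W member wells with Bmp4 on, are among the 7 wells with 3 or 4 rule genes.

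The upstream windows of the other 3 rule genes are shown because Enpp6 and Bmp4 were on in few EdU+ wells and Neu4 in many. Sequences are from RefSeq (GRCm38.p6), read 5′ to 3′ up to the gene start on the gene's strand, and capitals mark the core ACAAT, or its reverse complement ATTGT, bound by SOX factors such as the lineage factor SOX10; the windows are Neu4 at chr1:94020243-94020450 (plus strand), Bmp4 at chr14:46390670-46390919 (minus strand) and Enpp6 at chr8:46986637-46986886 (plus strand).
Neu4: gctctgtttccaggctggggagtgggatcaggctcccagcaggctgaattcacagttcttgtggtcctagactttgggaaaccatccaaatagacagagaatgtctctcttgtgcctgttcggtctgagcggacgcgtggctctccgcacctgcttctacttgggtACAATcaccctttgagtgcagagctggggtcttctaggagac
Bmp4: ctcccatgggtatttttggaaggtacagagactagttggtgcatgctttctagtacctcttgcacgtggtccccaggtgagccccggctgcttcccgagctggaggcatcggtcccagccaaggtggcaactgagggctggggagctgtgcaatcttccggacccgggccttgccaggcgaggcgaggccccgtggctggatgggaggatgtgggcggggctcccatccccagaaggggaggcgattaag
Enpp6: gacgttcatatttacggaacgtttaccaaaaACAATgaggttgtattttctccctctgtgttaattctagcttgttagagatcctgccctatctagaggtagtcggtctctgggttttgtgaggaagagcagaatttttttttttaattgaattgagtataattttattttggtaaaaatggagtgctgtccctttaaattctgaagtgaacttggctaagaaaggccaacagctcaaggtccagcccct
The core was found 1 time each in the Neu4 and Enpp6 windows and 0 times in the Bmp4 window, and 27.7% of 32851 promoter windows in the RefSeq table hold it within the 250 bases before the start. The TCF/LEF core CTTTGA, or its reverse complement TCAAAG, was found 1 time in the Neu4 window and 0 times in the others, with 13.8% of all windows holding it. The E-box CAGCTG was found in none of the 3, against 13% of all windows.

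The 7 wells with 3 or 4 rule genes on, 4 in the WT and 3 in the Fasn-R1812W library, did not have Pdgfra on. Of 14 further committed precursor markers on a list, 8 were on in more than 3 of the 7 wells, 2 in all 7 and 4 in none, and 10 were on in a larger share of the 7 than of the 102 wells with 2 rule genes. The matching counts over all genes were not worked out, so these counts only describe the list. It includes Lims2, whose reads cannot be told apart from those of the rule gene Gpr17. Gpr17 stood at 16830, 15268, 11565 and 4855 CPM in the 4 WT wells and at 8365, 5204 and 2279 in the 3 Fasn-R1812W wells, against medians of 1243 and 1294 in the member wells with 2 rule genes. Bmp4 stood at 246, 4003, 2384 and 662.5 CPM in the same WT wells and at 2833, 533 and 784 in the Fasn-R1812W wells. Pdgfra was at 0 in all 4 WT wells and at 24.6, 7.46 and 63.8 CPM, under the threshold for on, in the 3 Fasn-R1812W wells. These levels of the rule genes follow in part from the choice of the wells; Pdgfra and the genes below did not enter it.

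Bcas1 was on in 7 of the 7 wells and in 41.2% of the 102 wells with 2 rule genes, at 6257, 328, 372 and 3201 CPM in the WT wells and 1528, 1965 and 3327 in the Fasn-R1812W wells. Fyn, the Src-family kinase that drives process outgrowth in differentiating oligodendrocytes, was on in 7 of 7 wells against 17.6% of the 102. Epb41l2, a membrane skeleton protein, was on in 7 of 7 against 13.7%, with summed levels of 4679 and 3014 CPM in the 7 wells and of 81.7 and 191 in the 102 wells of the WT and Fasn-R1812W libraries. Zeb2, a transcription factor needed for myelination, was on in 7 of 7 against 40.2%. The deacetylase gene Sirt2 and the transcription factor gene Sox8 were each on in 6 of 7, against 30.4% and 25.5%.

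Myrf, the regulator that starts the myelin programme, was on in 4 of 7 against 4.90%, and Tcf7l2 in 4 of 7 against 15.7%. The late myelin gene Mbp was on in 1 of 7, Mag in 1 of 7 and Ugt8a and Opalin in 0 of 7. Mki67, a marker of dividing cells, was at 0 in all 7.

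Genes of the precursor state were divided in these wells. Pdgfra, Cspg4 and Cspg5 were on in 0 of 7, against 91.2%, 64.7% and 84.3% of the 102, and the exact interval on 0 of 7 reaches 41.0%. Slc1a3, the glutamate transporter shared with astrocytes, and Ednrb, the endothelin B receptor, were on in 0 of 7 against 42.2% and 44.1%. Vcan, a proteoglycan often used as a precursor marker, was on in 7 of 7 against 87.3%, and the glutamate receptor gene Gria2 in 7 of 7 against 99.0%. The 7 wells had 73202 to 366412 reads and 883 to 1350 genes at 10 or more reads, inside the range of the other member wells, and none had 2 genes of another cell type's set on. Single genes of those sets were on 4 times: the neuronal gene Syt1 at 5769 CPM in a WT well, and the microglial gene Csf1r at 1461, the neuroblast gene Dcx at 338 and the neuronal gene Snap25 at 199 CPM in Fasn-R1812W wells. Their part in the values of the 7 wells was not tested. The genes given here for these wells were chosen after their values were seen.

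**Figure D2:**
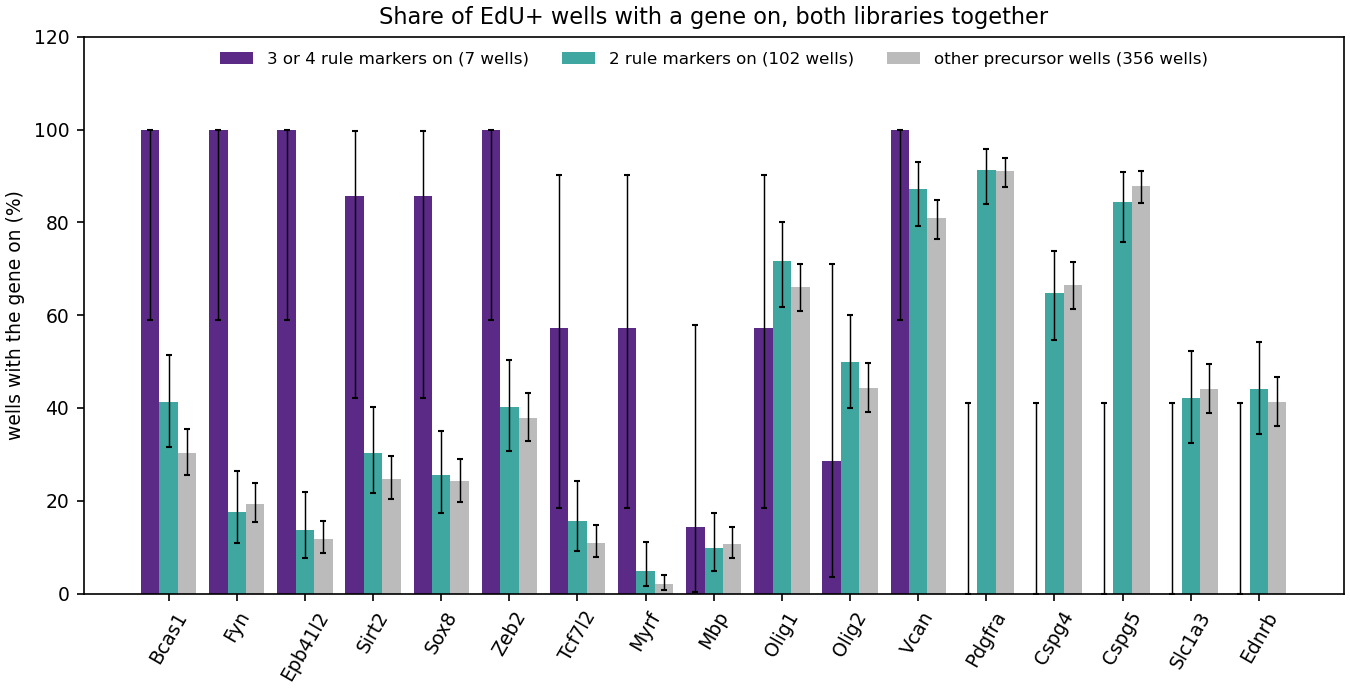
Bars give the percentage of EdU+ wells with a gene on, both libraries together, in the 7 wells with 3 or 4 rule genes, the 102 wells with 2 and the 356 other precursor wells; lines are exact 95% intervals for counting error. Bcas1, Fyn, Epb41l2, Zeb2 and Vcan stand at 100% and Pdgfra, Cspg4, Cspg5, Slc1a3 and Ednrb at 0% in the 7 wells, while the 102 wells lie close to the other precursor wells for most of the picked genes shown.

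The 102 wells with 2 rule genes were set beside 356 EdU+ wells, 156 WT and 200 Fasn-R1812W, that were no members and had at least 2 of the precursor genes Pdgfra, Cspg4, Vcan and Lhfpl3 on. With both libraries together, 5 picked genes that neither rule used differed by at most 5.56 percentage points in the share of wells on. Cspg5 was on in 84.3% of the 102 and 87.9% of the 356, Olig1 in 71.6% and 66.0% and Sox10 in 38.2% and 38.5%. Fyn was on in 17.6% and 19.4% and Mbp in 9.80% and 10.7%. Bcas1 stood somewhat higher, at 41.2% against 30.3%. Other genes outside both rules differed more, such as Tuba1a at 46.08% and 33.99%, Cd9 at 58.82% and 47.47% and Nav1 at 57.84% and 67.98%. In all member wells, Mbp went opposite ways by library. It was on in 6.897% of WT members against 12.82% of other precursor wells, and in 13.73% against 9% in Fasn-R1812W. Gpr17 and Neu4 themselves were on in 31.7% and 31.5% of the 356. The 3 WT wells with Bmp4 and Neu4 but not Gpr17 also carried Pdgfra, at 3343, 5432 and 515 CPM.

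Over all member wells, Pdgfra was on in 49 of 58 and 44 of 51 and stood at summed levels of 2398 and 2469 CPM in the WT and Fasn-R1812W libraries. Cspg4 was on in 34 and 32 wells and Vcan in 49 and 47. Members without Pdgfra, 9 in WT and 7 in Fasn-R1812W, had higher summed Gpr17, at 5917 and 4408 CPM against 1843 and 1617 in those with it. Summed Bcas1 was likewise 1056 and 1607 against 368 and 445. Much of this came from the 7 wells, which all fall in the group without Pdgfra.

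Few member wells showed cell division genes although all nuclei had taken up EdU in the days before. The cycling set was on in 2 of 58 WT and 1 of 51 Fasn-R1812W member wells, and in 5 of 156 and 9 of 200 other precursor wells. No gene of the G1/S list of 26 or the G2/M list of 30 was abundant enough in member wells to be compared. At least 2 of the genes Mbp, Mag, Mog, Cnp, Ugt8a and Myrf of the myelin programme were on in 3 of 58 WT members, 5.17% (1.08% to 14.4%), and 11 of 156 other precursor wells, 7.05% (3.57% to 12.3%). In the Fasn-R1812W library they were on in 10 of 51 members, 19.6% (9.82% to 33.1%), and 8 of 200 other precursor wells, 4% (1.74% to 7.73%). The sets for astrocytes, microglia, endothelial cells, leukocytes and neuroblasts were on in 0 member wells of either library. The neuronal set was on in 9 of 58 and 8 of 51 member wells, and in 16 of 156 and 31 of 200 other precursor wells. The source of these neuronal reads was not tested.

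Few genes differed between member wells and other precursor wells in a way shared by both libraries. Of 2727 genes that could be compared, with at least 10 CPM and on in at least 10% of wells in either class of each library, 51 (1.87%) were at least 2-fold higher in members in both libraries and 56 (2.05%) at least 2-fold lower, while 84 moved at least 2-fold in opposite directions. The 51 include Gpr17 and Neu4. Taken singly, the WT library had 400 genes higher and 365 lower, and the Fasn-R1812W library 241 and 361. Whether the shared counts differ from those of unrelated gene sets of these sizes was not tested. This limit holds for the genes named below. The 4 rule genes chose the wells, so these counts describe them and test nothing. The median log2 ratio over all genes was 0.03 in WT and −0.07 in Fasn-R1812W.

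Gpr17 and Neu4 led the genes higher in members, as the rule sets. Bcas1 was at 504 CPM in members and 169 in other precursors of the WT library and at 575 and 288 in the Fasn-R1812W library, or 1.57 and 0.99 as log2 ratios. Fyn was at 597 and 218 in WT and 375 and 193 in Fasn-R1812W, or 1.45 and 0.96 on the log2 scale. Without the 7 wells these ratios were 0.93 and 0.72 for Bcas1 and 0.58 and 0.48 for Fyn, so both ratios were smaller without them.

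The other genes that the naming rule took as higher in members were Tmem176a, a membrane protein of the endosomal system, with log2 ratios of 1.16 and 1.03, Hip1r, a clathrin and actin adaptor, with 1.24 and 0.89, Evi5l, a Rab GTPase-activating protein, with 1.48 and 0.86, and Rere, a nuclear receptor corepressor, with 1.12 and 0.86. Chd3, a chromatin remodeller of the NuRD complex, Cyld, a deubiquitinase, Dzip3, a ubiquitin ligase, and Srrm1, a splicing coactivator, had log2 ratios from 0.76 to 1.04. Each was on in at least 20.7% of the member wells of either library. Without the 7 wells the ratios of Rere were 0.44 and 0.59 and that of Dzip3 in Fasn-R1812W 0.50. Tmem176a turned to −0.26 in WT when only wells with at least 1000 genes and 50000 reads were used.

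Those named as lower in members were mostly widely expressed genes. Sltm, an RNA-binding protein, was at 167 against 358 CPM in WT and 156 against 391 in Fasn-R1812W, log2 ratios of −1.10 and −1.32. Wsb1, a substrate receptor of a ubiquitin ligase, had −1.58 and −1.04, Sptbn1, a spectrin, −1.38 and −0.84, Ywhaz, a 14-3-3 protein, −0.79 and −1.63, and Ampd3, an AMP deaminase, −0.82 and −1.30. Huwe1, Ubn2, Fam3c, Atp6v0c, Cfl1, Pdzd2 and Eya1 had log2 ratios between −0.70 and −1.22. All of them were still on in 12.07% or more of the member wells of each library.

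**Figure D3:**
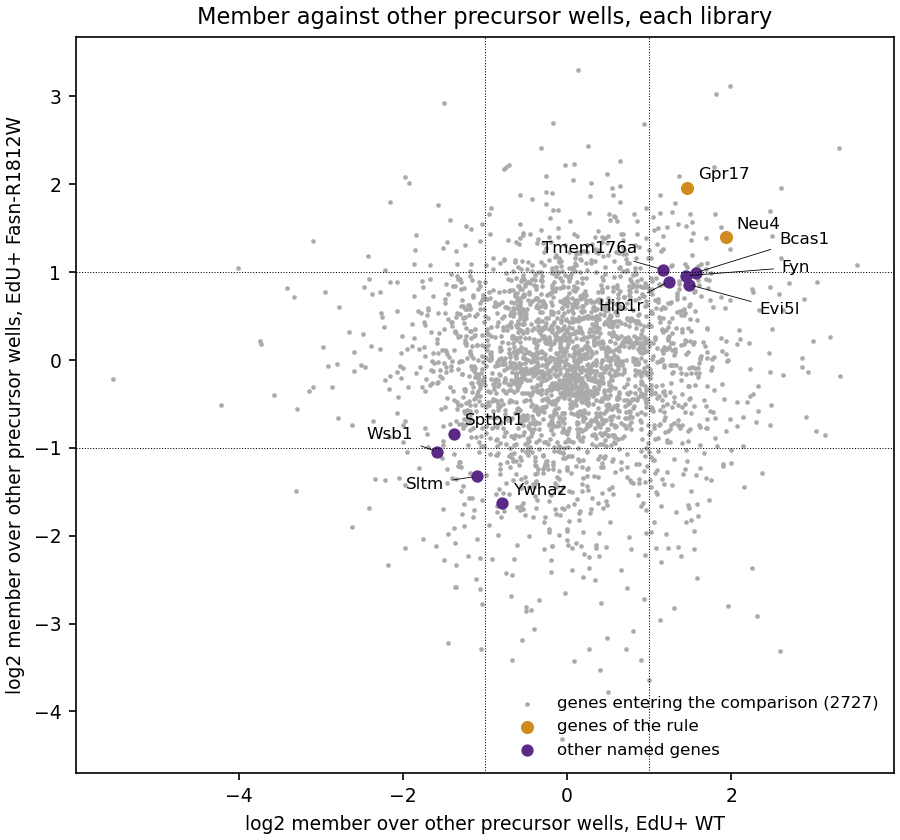
Each point is 1 of 2727 genes, with the log2 ratio of summed CPM in member over other precursor wells of the WT library on the x axis and of the Fasn-R1812W library on the y axis; dotted lines mark 2-fold. Gpr17 and Neu4, which chose the wells, lie at the upper right with Bcas1 and Fyn near them, and most genes form a cloud around 0.

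In the pathway lists, few genes passed 2-fold in both libraries, beside 1.87% higher and 2.05% lower over all genes. Genes named from lists, here and for the genotypes, beyond the 5 most abundant of each list were chosen after their values were seen. In the Notch list, 4 genes could be compared. The receptor gene Notch1 was higher in members, at 383 against 159 CPM in WT and 482 against 228 in Fasn-R1812W, while its target gene Hes5, an inhibitor of differentiation, was lower, at 13.9 against 146 and 36.5 against 104.5, log2 ratios of −3.30 and −1.49. Among growth factor receptors, 1 of 5 passed: Insr, the insulin receptor, at 196 against 70.6 and 242 against 116. In cholesterol synthesis, 1 of 4 passed, the sterol oxidase gene Msmo1 at 233 against 65.9 and 271 against 84.8. Among channels, 0 of 16 passed in either direction.

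Next came 9 further committed precursor markers, 13 precursor markers, 4 myelin genes, 15 lineage transcription factors, 4 BMP pathway genes and 4 Wnt pathway genes that could be compared. None of them was at least 2-fold apart in the same direction in both libraries. Over all 2727 genes 1.87% were higher and 2.05% lower, so in lists this short a count of 0 lies near that share. The committed precursor markers were nonetheless on the higher side, their medians being 0.77 (WT) and 0.72 (Fasn-R1812W) on the log2 scale beside 0.03 and −0.07 over all genes. The precursor markers had medians of −0.29 and −0.16. Fasn itself was opposite in sign, with a log2 ratio of 0.58 in the WT library and −0.87 in the Fasn-R1812W library.

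Between genotypes, member wells of the 2 libraries differed at many genes in both directions. Of 3820 genes with at least 10 CPM and on in at least 10% of member wells of either library, 808 (21.2%) were at least 2-fold higher and 734 (19.2%) at least 2-fold lower in the Fasn-R1812W library, with a median log2 ratio of 0.03. With TMM scaling 961 (25.2%) were higher and 625 (16.4%) lower, with a median of 0.18, and without the 7 wells of 3 or 4 rule genes 25.9% of 4098 genes were higher and 17.5% lower. With 58 and 51 wells, 1 library each and most genes on in a minority of wells, the share past 2-fold is large, and the counts of any gene group have to be read against it. No replicate check of any genotype value was possible.

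Fasn (chr11:120805846-120824547, minus strand), the gene that carries the mutation, was on in 9 of 58 WT and 7 of 51 Fasn-R1812W member wells. Its median over wells was 0 in both libraries and its highest values were 2372 and 2999 CPM. Summed over wells it stood at 166 (155 to 178) and 90.5 (85.0 to 96.3) CPM, a log2 ratio of −0.87. In other precursor wells the order was the opposite, 111 in WT and 166 in Fasn-R1812W. The substitution changes a residue of the protein, so the level of its RNA does not check the labels.

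Of the other fatty acid synthesis genes, 8 of the list of 20 could be compared with Fasn included, 1 was at least 2-fold higher and 2 at least 2-fold lower, with a median log2 ratio of −0.56. Over all genes 21.2% were higher and 19.2% lower. Acaca, acetyl-CoA carboxylase, was at 163 in WT and 74.6 CPM in Fasn-R1812W. Fads1, a fatty acid desaturase, was at 205 and 43.4, with a single well holding 84.0% of the Fasn-R1812W reads. Acly, the citrate lyase that supplies acetyl-CoA, went the other way at 87.8 and 184.5. Scd2, the stearoyl-CoA desaturase of brain, was the most widely on, in 35 of 58 and 36 of 51 wells, at 1858 and 1229.

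In cholesterol synthesis 4 of 7 genes were at least 2-fold lower and 0 at least 2-fold higher in Fasn-R1812W, with a median log2 ratio of −1.02, against 19.2% lower over all genes. Lss, the lanosterol synthase, was at 239 and 36.4, on in 6 and 2 wells, with 53.7% of its WT reads in 1 well. Cyp51, the lanosterol demethylase, was at 119.5 and 31.8, Srebf2, the transcription factor of the pathway, at 142 and 53.7, and Tm7sf2, a sterol reductase, at 141 and 69.1. Sqle and Msmo1 were on the other side, at 157 and 265 and at 233 and 271.

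The count rests on few wells, and genes such as Lss entered it only through the WT library. With no low-count filter 9 of 21 genes were lower and 2 higher, with a median of −0.50, and among wells with at least 1000 genes and 50000 reads the median was −0.26. With the wells of 3 or 4 rule genes left out, 5 cholesterol genes could be compared, of which 1 was lower and 1 higher, and the median turned to 0.22. In other precursor wells the same 7 genes had a median of −0.10 with 1 lower and 0 higher. The share of all genes past 2-fold between genotypes was not worked out for that larger class of wells. Of the 4 lower genes, 1, Srebf2, passed the filter and was lower without the wells of 3 or 4 rule genes. A gene that no longer passed the filter was not counted, so the others need not have lost their difference.

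**Figure D4:**
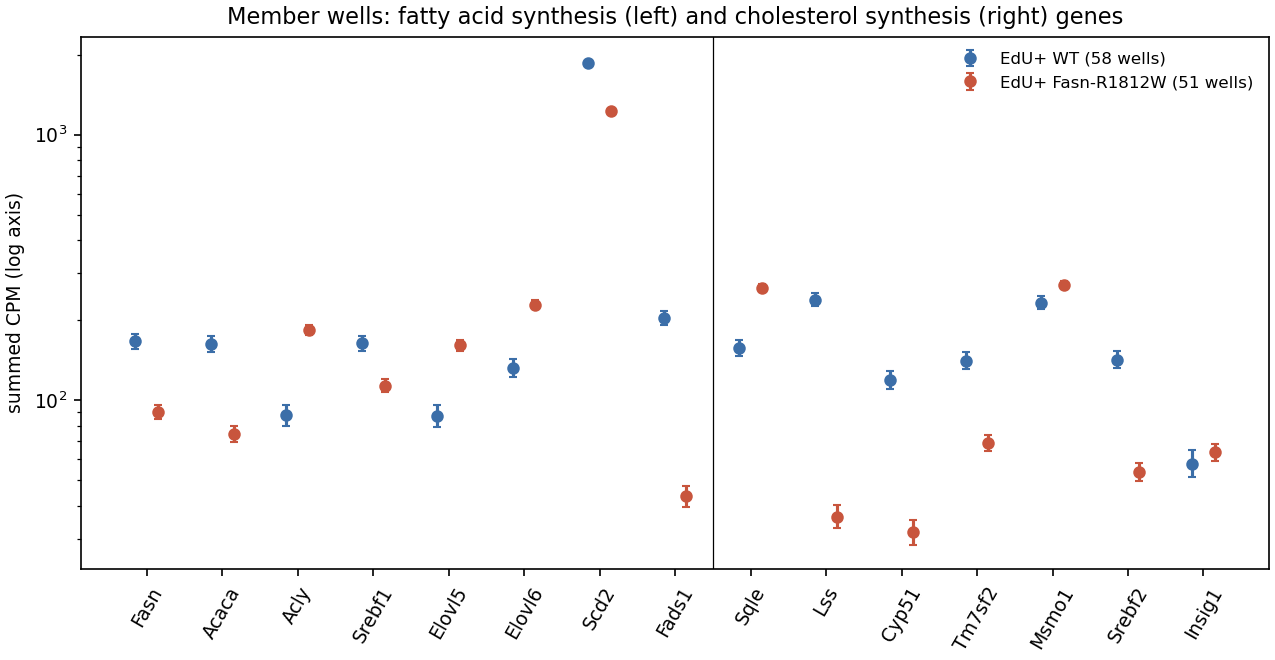
Points give summed CPM (log axis) of the fatty acid synthesis genes (left) and cholesterol synthesis genes (right) that could be compared in the 58 WT and 51 Fasn-R1812W member wells; bars are 95% Poisson intervals, which cover counting error only. Lss, Cyp51, Tm7sf2 and Srebf2 lie lower in Fasn-R1812W, and Sqle, Msmo1, Acly, Elovl5 and Elovl6 lie higher.

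Of 4 myelin genes that could be compared, Cnp (105 in WT and 317 in Fasn-R1812W) and Ugt8a (172 and 407) were at least 2-fold higher, against 21.2% of all genes compared. Mbp (278 and 132) was at least 2-fold lower in summed reads but on in more Fasn-R1812W wells, 7 of 51 against 4 of 58, and 0 genes were 2-fold lower with the mean CPM per well, TMM, thinning or deeper wells. Bcas1 was at 504 and 575, on in 22 of 58 and 27 of 51 wells, which after thinning every well to 20000 reads were 25 and 28 wells. Tcf7l2 was at 130 and 66.3, on in 12 and 8 wells.

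The Wnt list had 4 of 6 genes at least 2-fold lower and 0 at least 2-fold higher in Fasn-R1812W, with a median of −1.58. Over all genes 19.2% were lower and 21.2% higher. Ctnnb1, which encodes β-catenin, was at 322 and 84.5 CPM, and Rnf43 and Znrf3, ubiquitin ligases that remove Wnt receptors, were at 192 and 7.74 and at 83.4 and 18.5. Fzd9, a receptor, was at 220 and 92.7. The same genes had a median of 0.20 in other precursor wells with 0 lower and 1 higher, where no share over all genes was worked out. Without the 7 wells the same 4 genes were lower, with a median of −1.60 over 6 genes. Genes entered this count if they passed the filter in either library, as Rnf43 did through the WT library; with no low-count filter 8 of 18 genes were lower and 4 higher, with a median of −0.55, and after thinning 3 of 6 were lower, with a median of −1.07. Of 4 BMP pathway genes, the receptor gene Acvr2a was higher (55.8 and 168) and Smad4 lower (194 and 49.6).

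Among channels, 6 of 17 were at least 2-fold higher and 2 lower in Fasn-R1812W, against 21.2% higher and 19.2% lower over all genes. The sodium channel genes Scn1a (161 and 328) and Scn8a (192 and 387), the A-type potassium channel genes Kcnd2 (131 and 268) and Kcnd3 (151 and 316), Kcnj16 (92.8 and 372) and the calcium channel gene Cacna1d (32.4 and 156.5) were higher. Kcnj10, the inward rectifier Kir4.1 (365 and 101), and Kcna6 (136 and 4.50) were lower. Scn1a, Scn8a, Kcnd2 and Kcnd3 lay just past 2-fold, with log2 ratios of 1.01 to 1.06, and the number higher was 3 of 17 with the mean CPM per well or after thinning, and 2 of 15, with 3 lower, when on meant 20 reads and 200 CPM. In other precursor wells 0 of the same 17 genes were past 2-fold in either direction. That class is larger, with 156 and 200 wells, and its share over all genes was not worked out, so this does not set member wells apart. Neuronal genes also moved in members, 2 of 8 higher and 4 of 8 lower, to be read against the same shares over all genes. Syt1, with 327.5 in WT and 11.4 in Fasn-R1812W, was among them. The part of the neuronal genes in the channel values was not tested.

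Few precursor and lineage genes passed 2-fold between genotypes. The counts here stand beside 21.2% higher and 19.2% lower over all genes compared, and the gap from these shares was not tested. Of 13 precursor markers only Mmp15, a membrane metalloprotease, passed 2-fold, at 227 in WT and 22.4 in Fasn-R1812W. Of 14 lineage transcription factors, Sox5 was higher (99.6 and 297) and Sox2 lower (110 and 53.25). Of 6 growth factor receptors and 4 purinergic and related receptors, 0 passed 2-fold.

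The genes with the largest genotype ratios by the naming rule carried varied functions. Usp4, a deubiquitinase, was at 13.1 CPM in WT and 262 in Fasn-R1812W, on in 2 of 58 and 11 of 51 wells, a log2 ratio of 4.22. Cyfip1, a subunit of the actin-regulating WAVE complex, was at 18.9 and 358, on in 3 and 15 wells. Rmdn1, a microtubule-associated protein, was at 19.5 and 267, Klhl32, a kelch protein, at 26.1 and 313, and Rundc3a at 14.5 and 159. Efr3a, Ube3c, Safb2, Rpl34 and Upf2 had log2 ratios from 2.71 to 3.14.

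On the lower side, Psmb3, a proteasome subunit, was at 306.5 in WT and 25.9 in Fasn-R1812W, on in 12 and 3 wells, and Mmp15 followed. Grina, a membrane protein of the endoplasmic reticulum and Golgi, was at 667 and 86.1, on in 19 and 7 wells, a log2 ratio of −2.94. Ppt1, the lysosomal thioesterase that removes palmitate from proteins, was at 532 and 100.2, on in 23 and 10 wells. Slc44a1, a choline transporter, was at 604 and 127, on in 14 and 9 wells, with log2 −2.24 and −1.02 without the 7 wells. Slirp, Ppp1r21, Tram1, Atpif1 and Chd4 had log2 ratios from −2.63 to −2.24.

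Thinned to 20000 reads per well, with on at 2 reads, the number of wells on changed by −1 to 3 for these 20 genes in either library, Mmp15 for example going from 13 and 5 wells to 14 and 8. The 20 genes were picked as extremes out of 3820 from 1 library per genotype. In other precursor wells all 20 had a smaller log2 ratio in size, 13 of them in the same direction. Usp4 (66.3 and 180 CPM), Efr3a (40.5 and 166) and Psmb3 (177 and 58.6) were at least 2-fold apart there too, while Cyfip1 (170 and 140), Grina (265 and 289) and Ppt1 (276 and 265) were close in WT and Fasn-R1812W.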

How the data were processed

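The authors deposited raw counts of reads per gene and well, 1 table per library of 384 wells, for 25567 genes, of which 25395 were matched to a symbol. Per the submitters' processing notes, Trimmomatic 0.36, STAR 2.5.3a and build GRCm38.p5 were used; what counted the reads, on which annotation and with which strand option, is not given in the sources used here. The design states 382 nuclei per EdU+ library. Positions are from GENCODE M21.

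Counts were scaled to reads per 1000000, either per well or after summing the reads of a class of wells, so levels are not per gene length. Reads of mitochondrially encoded genes stayed out of the summed totals, and genes without a symbol stayed in. Ranges and medians over all member wells also leave the mitochondrial reads out, while values given well by well keep them. Log2 ratios carry a prior of 1 read per 1000000 and "compared" means past the filter on low counts given in the report. With 1 library per group there was no test; ratios past 2-fold are counted as a description. Intervals are exact (Clopper-Pearson, Newcombe for a difference, Poisson for summed reads) at 95%. No doublet caller was run. Thinning drew 20000 reads per well, with a gene on at 2 reads. The member rule, the 30 gene lists and the comparison class were chosen with earlier results of these data known.

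Named genotype genes had at least 20 reads per 1000000, were on in at least 20% of the member wells of the higher library, had there no well with over 33% of the gene's reads, and had summed, mean and on values in the same direction; the 10 largest ratios each way were taken. For members against other precursors both libraries had to meet this, and 12 each way were taken. Rule genes, Bcas1, Tcf7l2, Fasn and the 5 most abundant genes of each list were added. Predicted genes were left out, and Meg3 and 9630013A20Rik were not analysed here, and further genes of the myelin, cholesterol and channel lists are not reported here and stayed out of the list counts. Alternatives covered well filters, thresholds for on, the number of markers, thinning, scaling (edgeR 4.0.16 TMM, R 4.3.3), the prior and the low-count filter; setting values under 10 reads to 0 and leaving out the wells of 3 or 4 markers were added after seeing the data. The other steps used Python 3.11.15, numpy 2.4.6, pandas 2.3.3 and scipy 1.17.1, and the ratio and calling steps were checked on simulated data.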

Additional observations from a re-analysis of the deposited data

How the results depend on the processing

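Every value rests on 1 library per genotype, on wells that hold few genes each, and on member wells that are less deep in the WT library. No paired analysis was possible because each group is 1 library and the labels carry no replicate numbers.

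Of 75 alternative values of the shares and gene counts, 54 stayed close to the values above and 21 moved; the cause was not tested. With wells of at least 1000 genes and 50000 reads, the WT share was 25.15%, the difference in share −11.64 points, and 92 genes (3.02% of 3049 compared) were lower in members in both libraries. Asking for 1 marker gave shares of 47.44% (WT) and 53.19% and a difference of 5.748 points, so the order of the libraries turned; asking for 3 gave 1.136% and 0.7979%, 1881 genes (42.8% of 4395) higher and 2050 (46.6%) lower in Fasn-R1812W, and 269 (9.88% of 2723) higher and 778 (28.6%) lower in members. Without the low-count filter, 4469 genes (29% of 15419) were higher and 4023 (26.1%) lower in Fasn-R1812W, and 620 (4.31% of 14398) were higher and 12.6% lower in members. The count higher in members was 31 (1.14%) with the mean per well, 78 (2.86%) with TMM and 77 (2.81%) without wells holding another cell type, and the count lower was 33 (1.21%) with the mean per well and 31 (1.14%) after thinning. TMM also moved the genotype median of all genes from 0.03 to 0.18 and that of members over precursors in Fasn-R1812W from −0.07 to 0.13.

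Of single genes, those at least 2-fold apart turned in direction in 13 of 576 alternative values. With 3 markers asked for, log2 genotype ratios were −1.69 for Safb2, 7.26 for Psmb3 and 6.33 for Ppt1, and member ratios were −7.78 (WT) and −5.40 (Fasn-R1812W) for Tmem176a, −0.25 for Hip1r, −3.58 for Evi5l and 0.13 for Cfl1 in WT and 0.24 for Ampd3 in Fasn-R1812W. Tmem176a in WT was −0.26 in deeper wells. Without the wells of 3 or 4 markers, Bmp4 was −2.05 in Fasn-R1812W (4.97 in WT) and Enpp6 −1.62 in WT and −0.26 in Fasn-R1812W, which follows from the choice, since the wells left out are those with these genes on. List medians changed sign in 92 of 523 alternative values. The 523 leave out the other prior, the other thresholds for on and the setting with no low-count filter. Of 24 whose median was at least 2-fold, 1 did, that of cholesterol synthesis between genotypes, from −1.02 to 0.22 without the wells of 3 or 4 markers. Smaller ones moved far too, such as the stress list between genotypes, from −0.64 to 2.18 in deeper wells. Outside the 523, sphingolipid synthesis between genotypes went from −0.65 to 0.61 with on at 5 reads and 50 CPM.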
